A study of Mus musculus with 12 samples.

Results

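The genes described are the cytochrome P450 genes of mouse 3T3-L1 adipocytes with more or less of the transcription factor Foxp1. Members were the protein-coding genes whose symbol has the Cyp family form (Cyp, a number, letters, a number), which leaves out Cyp51. Of 28948 genes with a row, 63 were members. Of these, 25 reached at least 0.5 RPKM (reads per kilobase of exon, adjusted for the depth of the library) in at least 3 of the 12 libraries and are described, and 38 were below that minimum and are called silent here. Another 31 annotated genes of this name form had no row and could not be analysed. No gene with a row was at 0 RPKM in every library, and the 38 silent members do not include those 31.

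The 3T3-L1 line comes from fibroblasts of Swiss mouse embryos and forms fat cells in culture. The groups, of 3 libraries each, were cells with constituent overexpression of FOXP1, cells with an empty vector, cells with Foxp1 shRNA (a short hairpin RNA that lowers the target's RNA) and cells with a scrambled shRNA. All 4 groups were differentiated alike with 10 µM troglitazone, 5 µg/ml insulin, 1 µM dexamethasone and 0.5 mM isobutylmethylxanthine, and were then kept in insulin alone from day 4 and in plain growth medium from day 6. The promoter of the overexpression construct, the day of harvest and whether the cells were pools or clones are not given in the sources used here, and nothing says that replicates were separate cultures, so p-values measure only the spread between these samples, which may be technical.

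Cytochrome P450 enzymes are heme proteins that put an oxygen atom into fat-soluble molecules, with electrons handed over by partner proteins in the endoplasmic reticulum or the mitochondrion. Families 1 to 3 are best known in liver and lung for the breakdown of drugs and other foreign compounds, family 4 for the hydroxylation of fatty acids, and the higher families for steps in the making and breakdown of steroids, bile acids, vitamin D and retinoic acid. In fat tissue, P450 enzymes act on arachidonic acid, steroids, retinoids and foreign compounds that dissolve in fat.

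The 12 libraries held 35252019 to 38450003 assigned reads, and a single read in a gene with 1 kb of exon gave 0.026 to 0.0284 RPKM. Foxp1 had 5.78, 7.16 and 6.75 RPKM with overexpression, against 1.83, 1.765 and 1.82 RPKM with the empty vector. It had 1.11, 1.14 and 1.075 RPKM in the knockdown libraries, against 2.235, 2.20 and 2.11 RPKM in the scrambled ones. Both differences followed the labels (limma, log2 fold change 1.43, adjusted p = 2.07e-09, and -0.59, adjusted p = 1.01e-05). Fat cell markers fitted the label: 17 of 18 passed the minimum, and they summed to 6470 to 6800 RPKM with overexpression, 12860 to 13080 with the empty vector, 12080 to 12800 with knockdown and 9238 to 9476 with the scrambled hairpin. Overexpression replicate 3 stood apart, with 13.1% of reads from mitochondrial transcripts beside 9.99% and 9.65% in the other overexpression libraries and 9.04% ± 0.387 (SD, n = 3) with the empty vector. Results that change without it are given with that value.

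Promoter windows of 4 members are shown because these genes stand for different responses: Cyp2e1 was lower with overexpression and higher with knockdown, Cyp2ab1 did the opposite, Cyp4b1 was higher in both, and Cyp1b1 was one of the most abundant members and rose with knockdown only. Each window runs 5′ to 3′ on the gene's strand from 250 bases before to 50 bases after the start in RefSeq (GRCm38.p6). Capitals mark matches, on either strand, to the forkhead motif GTAAACA, the nuclear receptor motif AGGTCA, or GCGTG, the core motif of the aryl hydrocarbon receptor. Their windows are chr7:140763569-140763868 on the plus strand for Cyp2e1, and, on the minus strand, chr16:20325355-20325654 for Cyp2ab1, chr4:115647672-115647971 for Cyp4b1 and chr17:79715012-79715311 for Cyp1b1.
Cyp2e1: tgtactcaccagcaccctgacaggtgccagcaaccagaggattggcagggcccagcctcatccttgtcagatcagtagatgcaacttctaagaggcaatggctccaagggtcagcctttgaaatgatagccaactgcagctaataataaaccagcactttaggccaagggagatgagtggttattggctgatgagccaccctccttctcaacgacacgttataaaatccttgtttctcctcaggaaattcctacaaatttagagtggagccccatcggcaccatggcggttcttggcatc
Cyp2ab1: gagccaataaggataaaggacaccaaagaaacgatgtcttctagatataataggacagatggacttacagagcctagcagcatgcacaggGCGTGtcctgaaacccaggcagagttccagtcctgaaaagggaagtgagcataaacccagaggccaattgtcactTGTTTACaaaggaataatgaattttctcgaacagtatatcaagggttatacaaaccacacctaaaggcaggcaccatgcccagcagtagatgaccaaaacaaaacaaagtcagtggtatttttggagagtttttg
Cyp4b1: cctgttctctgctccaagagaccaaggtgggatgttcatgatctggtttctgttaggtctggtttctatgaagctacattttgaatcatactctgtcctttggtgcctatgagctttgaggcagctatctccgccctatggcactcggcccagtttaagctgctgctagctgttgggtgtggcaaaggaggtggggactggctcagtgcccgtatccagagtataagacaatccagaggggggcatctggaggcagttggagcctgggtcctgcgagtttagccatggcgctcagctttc
Cyp1b1: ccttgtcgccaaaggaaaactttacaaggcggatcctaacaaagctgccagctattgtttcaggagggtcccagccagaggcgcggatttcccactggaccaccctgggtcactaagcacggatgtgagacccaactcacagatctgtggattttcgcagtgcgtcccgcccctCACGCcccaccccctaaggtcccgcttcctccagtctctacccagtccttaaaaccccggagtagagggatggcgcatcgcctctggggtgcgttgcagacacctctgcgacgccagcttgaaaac
The Cyp2ab1 window holds the forkhead motif on the opposite strand, as TGTTTAC from position -85, and GCGTG from position -160. The Cyp1b1 window holds GCGTG on the opposite strand, as CACGC from position -76, and the windows of Cyp2e1 and Cyp4b1 hold none of these letters. Of the 25 described members, 18 had a RefSeq window, and 1 of the 18 held GTAAACA, against 3.65% of all 32851 windows. AGGTCA was in 3 of 18 (Cyp2f2, Cyp11a1 and Cyp2c70), against 16.3% of all windows, and GCGTG was in 9 of 18, against 32.4%. DR1, a direct repeat of AGGTCA with 1 base between the copies, was in 0 of 18, against 0.0396%. A match is a description of the letters and says nothing of binding.

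A pair of genes carried most of the P450 RNA in every group. Cyp2f2, known for activating naphthalene in mouse airway cells, and Cyp1b1, which oxidises estradiol and polycyclic hydrocarbons, together made up 63.41% to 64.74% of the summed RPKM of the 25 members with overexpression and 74.47% to 75.69% with the empty vector. Their share was 58.34% to 59.65% with knockdown and 56.95% to 58.48% with the scrambled hairpin. The sum itself averaged 230.3 RPKM with overexpression and 369.6 RPKM with the empty vector, and 236.1 RPKM with knockdown and 187.7 RPKM with the scrambled hairpin. In these cell populations, fewer cells of a type and less RNA per cell cannot be told apart. Below the leading pair the levels dropped steeply: 5 of the 25 members reached 10 RPKM in any library, and 9 never reached 2.5 RPKM.

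**Figure D1:**
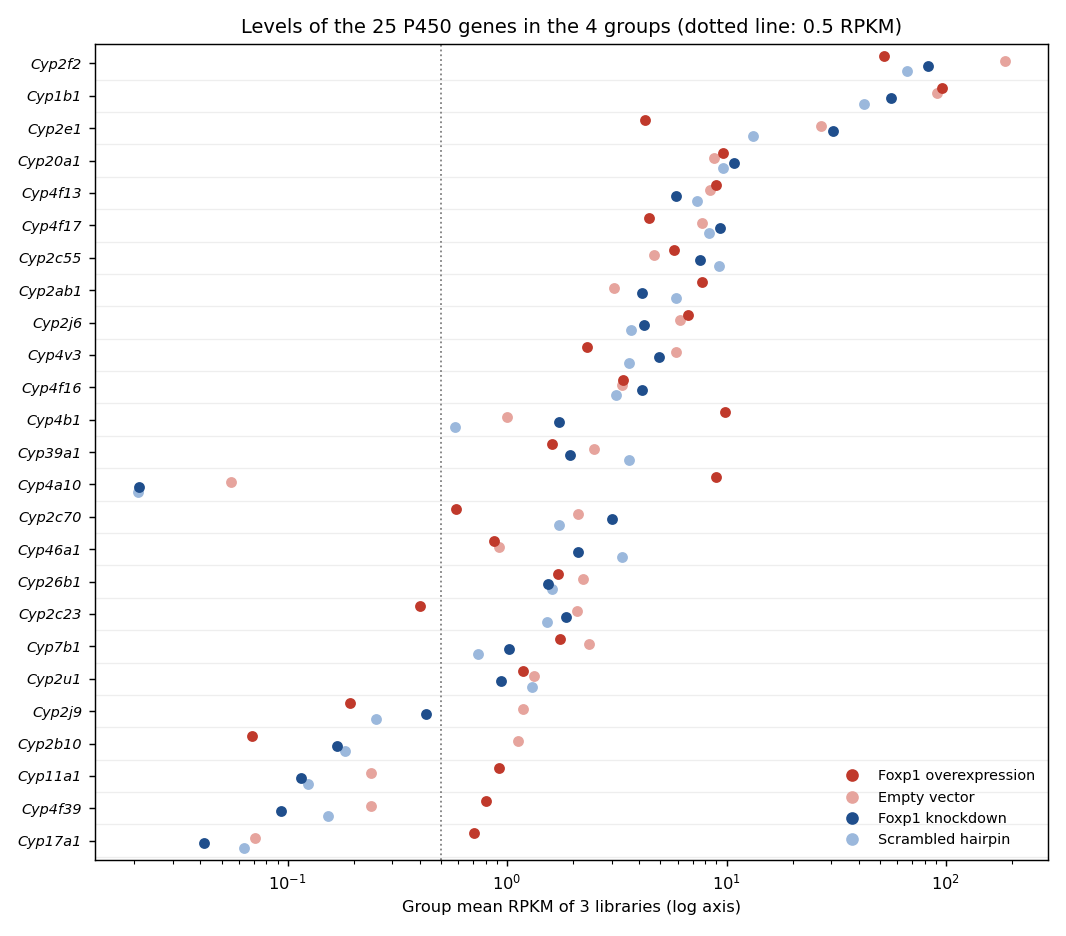
Mean RPKM of the 25 described P450 genes in each group (log axis, n = 3 libraries per group), ordered by level, with the 0.5 RPKM minimum as a dotted line. Cyp2f2 and Cyp1b1 lie above the rest in every group, and Cyp4a10 is near 9 RPKM with overexpression only.

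With overexpression, 18 of the 25 members passed limma's test at an adjusted p under 0.05, 7 higher and 11 lower than with the empty vector. Over all 12712 genes tested, 48.8% passed, 29.4% higher and 19.5% lower. In size, 13 members changed at least 2-fold in mean RPKM, 6 higher and 7 lower. Of all genes, 6.59% were called with such a fold, 3.73% higher and 2.86% lower. The median absolute log2 fold change was 0.63 over the members and 0.15 over all genes, while the median signed change was -0.04 over the members and 0.04 over all genes. Groups did not overlap for 19 of 25 members, against 55.7% of all genes. However, 6 members passed the minimum through a single group and so had to differ: Cyp4a10, Cyp11a1, Cyp4f39 and Cyp17a1 through overexpression and Cyp2j9 and Cyp2b10 through the empty vector. All 6 are among the 13 that changed at least 2-fold, and they also enter the medians and the count without overlap. Nothing is therefore read from those values over all 25. Of the other 19, 3 were higher, 9 were lower and 7 did not pass.

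With knockdown, 19 of the 25 members passed, 13 higher and 6 lower than with the scrambled hairpin. Over all genes 46.7% passed, 17.8% higher and 28.9% lower. At least 2-fold changes were few: 2 members, Cyp2e1 and Cyp4b1, were called at least 2-fold higher and 0 at least 2-fold lower, against 1.24% and 0.991% of all genes. The median log2 fold change was 0.15 over the members and -0.04 over all genes. Groups did not overlap for 19 of 25 members, against 57.2% of all genes.

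**Figure D2:**
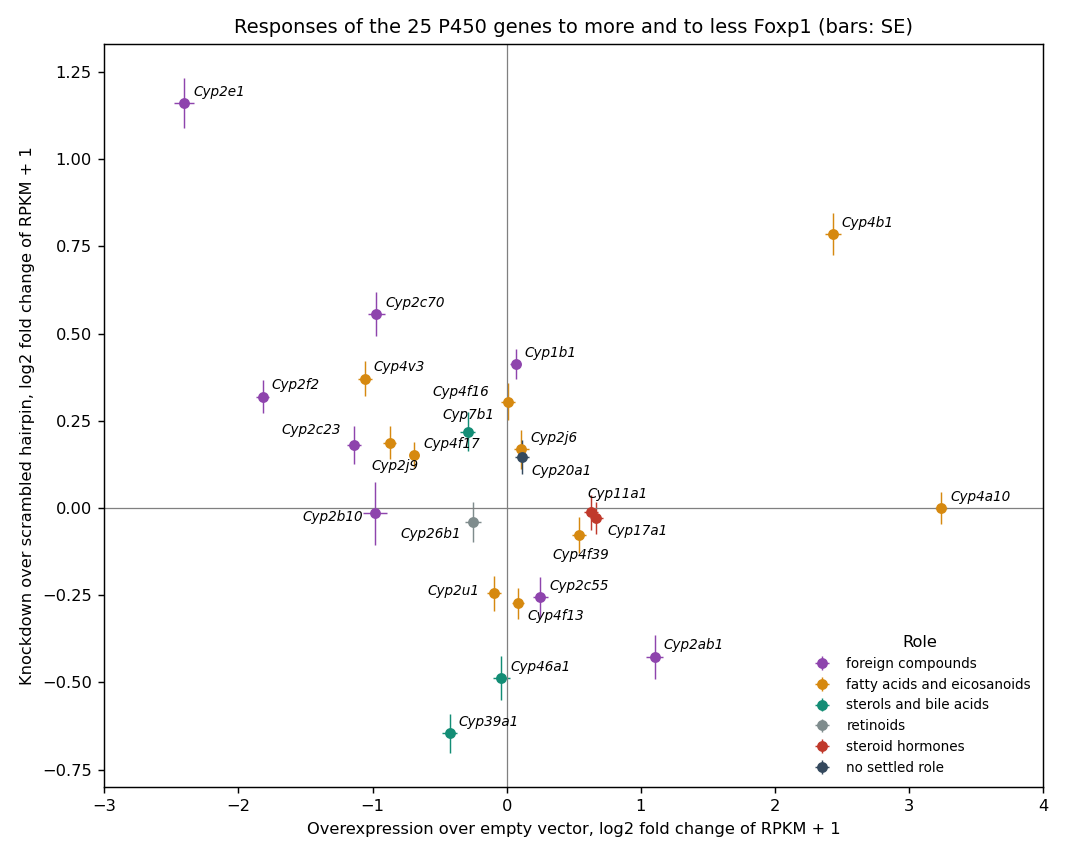
Log2 fold change of mean log2(RPKM + 1) for the 25 described P450 genes, overexpression over empty vector on the horizontal axis and knockdown over scrambled hairpin on the vertical axis, with standard errors from limma and colours for role. Cyp2e1 lies far to the left and highest, Cyp4a10 far to the right at 0 on the vertical axis, and Cyp4b1 is high on both.

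Members were grouped by role from their family. A group can therefore hold members known for other substrates, as with Cyp2c70, Cyp2c23 and Cyp2c55 below. The group of foreign compound enzymes (Cyp2f2, Cyp1b1, Cyp2e1, Cyp2c55, Cyp2ab1, Cyp2c70, Cyp2c23 and Cyp2b10) had 2 higher, 5 lower and 1 not called with overexpression, where 29.4% of all genes were higher and 19.5% lower. With knockdown 5 were higher, 2 lower and 1 not called, where 17.8% of all genes were higher and 28.9% lower. Without Cyp2b10, which passed the minimum through the empty vector alone, 4 of 7 were lower with overexpression and 5 of 7 higher with knockdown. Cyp2e1 (ENSMUSG00000025479, chr7:140763739-140774987), which oxidises ethanol, acetone and other small molecules, had 4.07, 4.59 and 4.14 RPKM with overexpression, against 27.3, 27.04 and 26.4 RPKM with the empty vector. It had 32.7, 27.8 and 31.4 RPKM in the knockdown libraries, against 12.3, 12.3 and 14.8 RPKM in the scrambled ones. The groups did not overlap in either comparison, and all overexpression libraries were below every other library. Its mean ratio was 0.159 with overexpression (log2 fold change -2.41, SE 0.07, adjusted p = 2.04e-10) and 2.33 with knockdown (1.16, adjusted p = 4.41e-07). These responses differed by -3.57 on the log2 scale (limma, adjusted p = 2.66e-10).

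Cyp2f2 (ENSMUSG00000052974, chr7:27119909-27133660) had 50.3, 50.9 and 55.0 RPKM with overexpression, against 184, 182 and 192 RPKM with the empty vector. Knockdown libraries had 79.8, 81.55 and 88.2 RPKM, against 64.5, 65.8 and 69.0 RPKM in the scrambled libraries. No groups overlapped, and Cyp2f2 thus fell to a ratio of 0.28 with overexpression (limma, adjusted p = 7.76e-11) and rose by a ratio of 1.25 with knockdown (adjusted p = 2.18e-04). An opposite-strand gene, Gm15883, overlaps 13.5% of the exon bases of Cyp2f2, and the strand setting of the counting is not given. Cyp2c70, which in mouse liver makes muricholic bile acids, had 0.493, 0.577 and 0.686 RPKM with overexpression and 2.33, 2.02 and 1.98 RPKM with the empty vector. In the knockdown libraries it had 3.06, 3.17 and 2.79 RPKM, against 1.76, 1.58 and 1.83 RPKM in the scrambled ones. Its ratios were 0.277 and 1.74 (adjusted p = 1.01e-07 and 2.6e-05). Cyp2b10, the classical liver target of the receptor CAR, had 0.0513, 0.0773 and 0.0772 RPKM with overexpression and 1.15, 1.40 and 0.819 RPKM with the empty vector, and was called lower (adjusted p = 2.38e-06). This was 16 reads with overexpression and 267 with the empty vector in all, a ratio of 0.0606 with a 95% counting interval of 0.0341 to 0.1002. Since Cyp2b10 passed the minimum through the empty vector alone, its being lower follows from the rule and is given as a description. Cyp2b10 was not called with knockdown, at 0.168 ± 0.0363 RPKM and 0.182 ± 0.0945 RPKM (adjusted p = 0.906).

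Cyp1b1 was the most abundant member with overexpression, at 95.5, 95.9 and 95.1 RPKM, against 91.7, 89.3 and 92.7 RPKM with the empty vector. These groups did not overlap, but the difference, a ratio of 1.05, did not pass (adjusted p = 0.224). The knockdown libraries had 57.7, 55.9 and 55.65 RPKM, against 42.9, 39.2 and 44.4 RPKM in the scrambled libraries, a rise of 1.34 times (limma, adjusted p = 1.45e-05). Among family 2 genes, 2 went the other way from Cyp2e1. Cyp2ab1 had 7.82, 8.34 and 7.09 RPKM with overexpression, against 2.98, 3.35 and 2.89 RPKM with the empty vector. It had 3.77, 4.43 and 4.15 RPKM with knockdown, against 5.87, 5.76 and 5.99 RPKM with the scrambled hairpin. It was thus 2.52 times as high with overexpression (adjusted p = 3.74e-08) and fell to 0.702 times with knockdown (adjusted p = 1.98e-04), again with no overlap between groups. Cyp2c55, which hydroxylates arachidonic acid in mouse, averaged 5.78 ± 0.457 RPKM with overexpression and 4.69 ± 0.377 RPKM with the empty vector (ratio 1.23, adjusted p = 0.00298). With knockdown it averaged 7.55 ± 0.279 RPKM and with the scrambled hairpin 9.20 ± 0.111 RPKM (SD, n = 3 each, ratio 0.82, adjusted p = 0.00295).

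**Figure D3:**
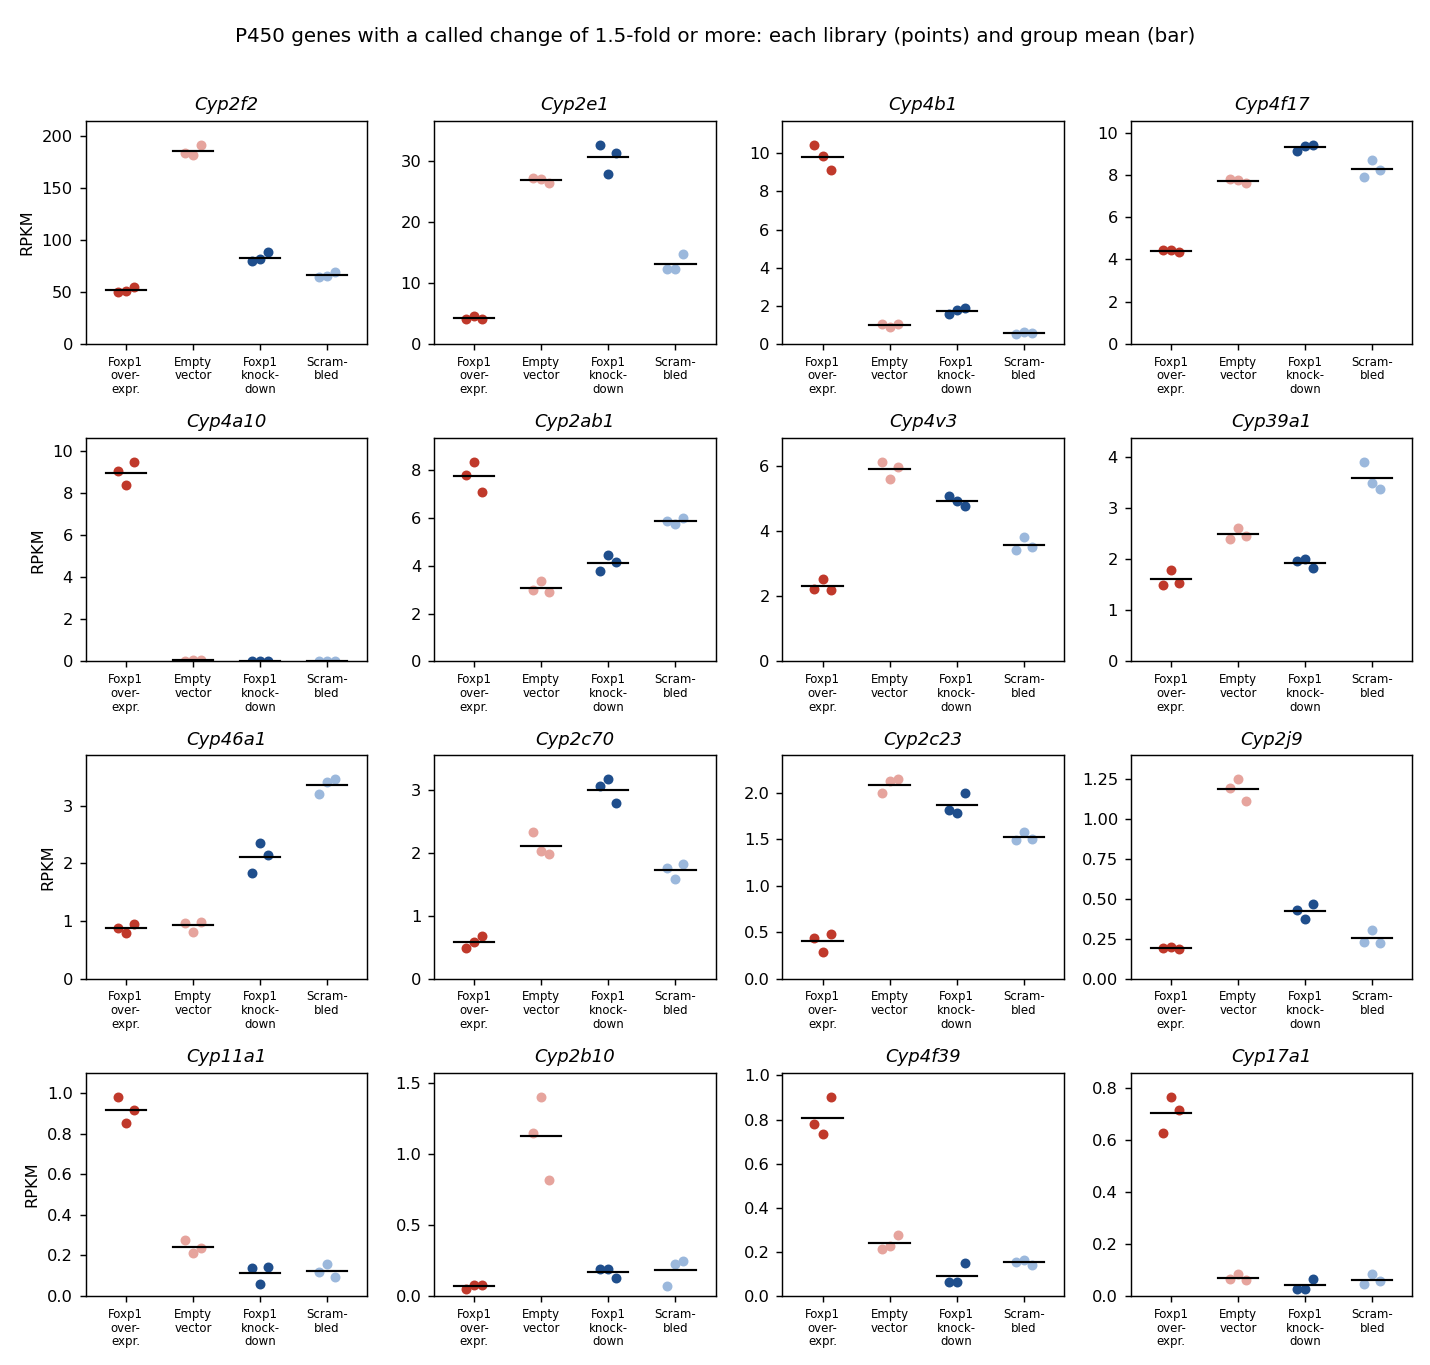
RPKM in each library of the 16 P450 genes that were called with a mean ratio of at least 1.5 in either direction in a comparison of Foxp1, from left to right overexpression, empty vector, knockdown and scrambled hairpin (n = 3 each, linear axes from 0, bars at the means). Cyp4a10, Cyp11a1, Cyp4f39 and Cyp17a1 are highest in the overexpression libraries, and Cyp2b10 and Cyp2j9 are highest with the empty vector.

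Of the 10 described members grouped by family under fatty acids and eicosanoids, 3 were higher, 3 lower and 4 not called with overexpression. With knockdown 6 were higher, 2 lower and 2 not called. The 3 higher are close to the 29.4% of all genes. Without Cyp4a10, Cyp4f39 and Cyp2j9, which passed the minimum through 1 group, 1 of 7 was higher and 2 lower with overexpression, and 5 were higher and 2 lower with knockdown. The largest ratio of all was that of Cyp4a10 (ENSMUSG00000066072, chr4:115518264-115533649), a fatty acid ω-hydroxylase and in liver a classical target of the receptor PPARα. It had 9.03, 8.39 and 9.48 RPKM with overexpression, against 0.0375, 0.0740 and 0.0538 RPKM with the empty vector. In the knockdown libraries it had 0.0253, 0.0251 and 0.0126 RPKM, against 0.0249, 0 and 0.0376 RPKM in the scrambled ones. Only overexpression libraries held more than a few reads: 2089 reads in all, against 13 with the empty vector, a ratio of 162.4 with a 95% counting interval of 94.8 to 305.6. Cyp4a10 passed the minimum through overexpression alone, so its being higher there follows from the rule and is given as a description. The rise passed limma's test (log2 fold change 3.24 on the log2(RPKM + 1) scale, adjusted p = 5.41e-13), and knockdown did not (adjusted p = 0.996). Of the 50-base stretches of Cyp4a10's exons, 29.8% also occur in Cyp4a32 or Cyp4a31, so reads may have been split between these copies or dropped.

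Cyp4b1 (ENSMUSG00000028713, chr4:115624725-115647723), known for activating the toxin 4-ipomeanol and for oxidising fatty acids, lies near Cyp4a10 on chromosome 4 and was the only member called higher in both comparisons, as 4.31% of all genes were. It had 10.45, 9.83 and 9.14 RPKM with overexpression, against 1.04, 0.911 and 1.06 RPKM with the empty vector, a ratio of 9.79 (adjusted p = 3.58e-11). It had 1.56, 1.76 and 1.86 RPKM with knockdown, against 0.511, 0.649 and 0.585 RPKM with the scrambled hairpin, a ratio of 2.97 (adjusted p = 1.62e-06). No groups overlapped, and the overexpression response was the larger by 1.65 on the log2 scale (limma, adjusted p = 1.85e-08). The other members in this stretch of chromosome 4 were silent. Cyp4a14 had 15 reads with overexpression and 2 with the empty vector (ratio 7.58, 95% counting interval 1.76 to 68.3), Cyp4a31 had 11 and 0 reads, and Cyp4x1 had 0 reads in both groups.

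Cyp4v3, the mouse counterpart of the human fatty acid hydroxylase CYP4V2 that is mutated in a crystalline eye disease, had 2.21, 2.53 and 2.19 RPKM with overexpression and 6.12, 5.60 and 5.97 RPKM with the empty vector. It had 5.06, 4.92 and 4.77 RPKM with knockdown and 3.42, 3.81 and 3.50 RPKM with the scrambled hairpin. All overexpression libraries were below, and all knockdown libraries above, their controls (ratios 0.392 and 1.37, adjusted p = 8.17e-09 and 1.14e-04). Cyp2c23, grouped by its family with the foreign compound enzymes but known as an arachidonic acid epoxygenase of mouse kidney, fell with overexpression to 0.440, 0.290 and 0.478 RPKM, against 1.99, 2.12 and 2.14 RPKM with the empty vector (ratio 0.193, adjusted p = 7.98e-09). Its rise with knockdown, to 1.86 ± 0.116 RPKM, against 1.52 ± 0.0445 RPKM with the scrambled hairpin (adjusted p = 0.0169), did not hold without knockdown replicate 3 (adjusted p = 0.0706) or scrambled replicate 1 (0.0530). Cyp2j9, an arachidonic acid hydroxylase of mouse brain, had 0.195, 0.196 and 0.187 RPKM with overexpression, against 1.19, 1.25 and 1.11 RPKM with the empty vector (ratio 0.163, adjusted p = 2.26e-08). It passed the minimum through the empty vector alone, so its being lower with overexpression follows from the rule and is given as a description. With knockdown Cyp2j9 averaged 0.425 ± 0.0489 RPKM and with the scrambled hairpin 0.252 ± 0.0469 RPKM (ratio 1.69, adjusted p = 0.00644).

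Cyp2j6, a neighbour of Cyp2j9 on chromosome 4, was not called with overexpression, at 6.69 ± 0.275 RPKM, against 6.13 ± 0.531 RPKM with the empty vector (adjusted p = 0.129). With knockdown it was called higher, at 4.22 ± 0.132 RPKM, against 3.65 ± 0.222 RPKM with the scrambled hairpin (adjusted p = 0.0284), but not without any one of knockdown replicates 1 and 3 or scrambled replicates 2 and 3 (adjusted p = 0.072 to 0.101). Cyp2u1, a fatty acid hydroxylase of brain and thymus, averaged 1.19 ± 0.0983 RPKM with overexpression and 1.33 ± 0.109 RPKM with the empty vector (adjusted p = 0.151). It fell to 0.938 ± 0.0208 RPKM with knockdown, against 1.30 ± 0.0914 RPKM with the scrambled hairpin (adjusted p = 0.00198).

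The Cyp4f genes of chromosome 17 lie in 1 stretch and gave different calls. Cyp4f17 fell with overexpression to 4.43, 4.44 and 4.36 RPKM, against 7.81, 7.77 and 7.62 RPKM with the empty vector (adjusted p = 1.62e-08). It had 9.13, 9.37 and 9.44 RPKM with knockdown, against 7.91, 8.70 and 8.25 RPKM with the scrambled hairpin (adjusted p = 0.00441, or 0.0538 after scaling each library to TPM). Cyp4f39, whose human counterpart CYP4F22 hydroxylates the very long fatty acids of skin ceramides, had 0.778, 0.734 and 0.904 RPKM with overexpression, against 0.212, 0.228 and 0.278 RPKM with the empty vector (ratio 3.36, adjusted p = 3.63e-06). It passed the minimum through overexpression alone, so its being higher there follows from the rule and is given as a description. Cyp4f39 was not called with knockdown, at 0.0931 ± 0.0484 RPKM and 0.153 ± 0.0133 RPKM (adjusted p = 0.242). Cyp4f16 was not called with overexpression, at 3.36 ± 0.0378 RPKM and 3.33 ± 0.0653 RPKM (adjusted p = 0.919). It rose with knockdown to 4.12 ± 0.306 RPKM, against 3.14 ± 0.262 RPKM with the scrambled hairpin (adjusted p = 6.12e-04), and 17.4% of its 50-base stretches also occur in other genes, Cyp4f37 and Cyp4f17 among them. Cyp4f13 fell with knockdown, to 5.88 ± 0.198 RPKM, against 7.31 ± 0.239 RPKM (adjusted p = 4.41e-04). With overexpression Cyp4f13 averaged 8.94 ± 0.404 RPKM and with the empty vector 8.37 ± 0.437 RPKM (adjusted p = 0.142, but 0.0462 without overexpression replicate 3).

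Among the 3 described members grouped under sterols and bile acids, 2 were lower with overexpression, and 1 was higher and 2 lower with knockdown. Cyp46a1 turns cholesterol into 24-hydroxycholesterol in brain, and Cyp39a1 acts on that product. Cyp46a1 had 1.83, 2.35 and 2.14 RPKM with knockdown, against 3.20, 3.41 and 3.45 RPKM with the scrambled hairpin (ratio 0.629, adjusted p = 7.94e-05). With overexpression it was not called, at 0.870 ± 0.0821 RPKM, against 0.923 ± 0.0938 RPKM with the empty vector (adjusted p = 0.637). Cyp39a1 was the only member called lower in both comparisons, as 5.27% of all genes were. It had 1.48, 1.78 and 1.54 RPKM with overexpression, against 2.40, 2.62 and 2.45 RPKM with the empty vector (ratio 0.643, adjusted p = 5.89e-05). It had 1.97, 1.995 and 1.82 RPKM with knockdown, against 3.897, 3.49 and 3.37 RPKM with the scrambled hairpin (ratio 0.537, adjusted p = 4.78e-06). The groups of Cyp39a1 did not overlap in either comparison. Cyp7b1, which hydroxylates oxysterols at position 7, averaged 1.74 ± 0.171 RPKM with overexpression and 2.35 ± 0.145 RPKM with the empty vector (ratio 0.739, adjusted p = 0.00109). It averaged 1.02 ± 0.0356 RPKM with knockdown and 0.740 ± 0.0866 RPKM with the scrambled hairpin (ratio 1.38, adjusted p = 0.00757).

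The 2 described enzymes of steroid hormone synthesis passed the minimum through the overexpression group alone, so that their being higher there follows from the rule and is given as a description. Cyp11a1, which cleaves the side chain of cholesterol as the first step of steroid synthesis, had 0.982, 0.850 and 0.916 RPKM with overexpression, against 0.274, 0.211 and 0.236 RPKM with the empty vector (ratio 3.81, adjusted p = 7.32e-07). Cyp17a1, the 17α-hydroxylase and lyase on the way to androgens, had 0.626, 0.767 and 0.716 RPKM with overexpression, against 0.0666, 0.0845 and 0.0615 RPKM with the empty vector (adjusted p = 2.02e-07). For Cyp17a1 this was 215 reads with overexpression and 22 with the empty vector, a ratio with a 95% counting interval of 6.36 to 16.1. The groups did not overlap for either gene, and neither passed with knockdown (adjusted p = 0.859 for Cyp11a1 and 0.63 for Cyp17a1). Star, which carries cholesterol to Cyp11a1 in the mitochondrion, averaged 0.385 RPKM with overexpression and 0.545 RPKM with the empty vector (adjusted p = 0.0614). Of 9 markers of steroid-making cells, 8 had a row and 5 passed the minimum: Cyp11a1, Cyp17a1, Star, Fdx1 and Akr1b7. The whole list summed to 16.21 to 21.22 RPKM with overexpression and 19.31 to 19.63 RPKM with the empty vector. Fdx1 alone averaged 16.2 RPKM with overexpression and 17.4 RPKM with the empty vector, so these sums are mostly Fdx1. Akr1b7, an aldose reductase-like enzyme, was lower with overexpression, at 0.537 ± 0.135 RPKM, against 1.09 ± 0.186 RPKM with the empty vector (adjusted p = 0.00486). Nr5a1 reached no more than 0.0503 RPKM and Hsd3b1 no more than 0.0426 RPKM in any library.

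Cyp26b1, which breaks down retinoic acid, was the only described retinoid enzyme. It averaged 1.70 ± 0.141 RPKM with overexpression and 2.22 ± 0.152 RPKM with the empty vector (ratio 0.768, adjusted p = 0.00303), and 1.53 ± 0.111 RPKM with knockdown and 1.60 ± 0.119 RPKM with the scrambled hairpin (adjusted p = 0.595). Cyp20a1, an enzyme of no settled substrate, was not called with overexpression, at 9.63 ± 0.781 RPKM with overexpression and 8.81 ± 0.225 RPKM with the empty vector (adjusted p = 0.0736). Without overexpression replicate 2 that adjusted p was 0.0137. With knockdown it averaged 10.8 ± 0.389 RPKM and with the scrambled hairpin 9.66 ± 0.094 RPKM (adjusted p = 0.0277). The knockdown call of Cyp20a1 was lost without knockdown replicate 1 or any one of the scrambled replicates (adjusted p = 0.0538 to 0.103).

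Set side by side, the responses ran in opposite directions for 10 of the 25 members and in the same direction for 2, against 16.8% and 9.58% of all genes tested. The 8 members called lower with overexpression and higher with knockdown were Cyp2f2, Cyp2e1, Cyp4f17, Cyp4v3, Cyp2c70, Cyp7b1, Cyp2c23 and Cyp2j9, a pattern of 5.69% of all genes. The 2 members of the mirrored pattern were Cyp2ab1 and Cyp2c55, a pattern of 11.2% of all genes. The 6 members called with overexpression only were Cyp4a10, Cyp11a1, Cyp4f39, Cyp17a1, Cyp26b1 and Cyp2b10, 4 higher and 2 lower, against 13.9% and 8.51% of all genes. The 7 members called with knockdown only were Cyp1b1, Cyp20a1, Cyp2j6, Cyp4f16, Cyp4f13, Cyp46a1 and Cyp2u1, 4 higher and 3 lower, against 7.79% and 12.5%. No member was called in neither comparison, against 30.9% of all genes. Nothing is read from these counts over all 25, since 5 of the 6 with an overexpression call only passed the minimum through 1 group. Over the 19 members without that limit, 9 had opposite calls, 2 the same call, 1 (Cyp26b1) a call with overexpression only and 7 with knockdown only. The difference between the responses itself passed for 22 members, 10 positive and 12 negative, against 52.3% of all genes (32.7% positive and 19.6% negative). These 22 include the members that passed the minimum through 1 group. Over the 19 without that limit, 6 differences were positive, 10 negative and 3 not called. The exceptions were Cyp20a1, Cyp2j6 and Cyp2u1, whose responses were not shown to differ (Cyp2u1 reached adjusted p = 0.0464 without overexpression replicate 2). The differences of Cyp39a1 (adjusted p = 0.0342) and Cyp26b1 (0.0425) did not hold without overexpression replicate 2, empty vector replicate 1 or 3 or scrambled replicate 1. Without knockdown replicate 3 that of Cyp39a1 was lost as well, and without overexpression replicate 3, knockdown replicate 1 or 2 or scrambled replicate 3 that of Cyp26b1. Over all these libraries the adjusted p was 0.0679 to 0.0865 for Cyp39a1 and 0.0555 to 0.1 for Cyp26b1.

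The fat cell markers changed too: of the 17 tested, 2 were higher and 13 lower with overexpression (median log2 fold change -0.54). With knockdown 9 were higher and 5 lower (0.14). Over the 25 P450 members the medians were -0.04 with overexpression and 0.15 with knockdown. Preadipocyte markers summed to 121.7 to 129.3 RPKM with overexpression and 114.8 to 126.5 RPKM with the empty vector, and to 136.5 to 151.2 RPKM with knockdown and 153.6 to 172.6 RPKM with the scrambled hairpin. Their part in the P450 results was not tested. Several members are known as liver genes, but of 11 hepatocyte markers 0 passed the minimum, and they summed to 0.576 to 0.8191 RPKM with overexpression and 0.6989 to 0.7506 RPKM with the empty vector. Endothelial markers also had 0 of 8 above the minimum. Of 13 macrophage markers, 10 had a row and 2, Cd68 and Cd14, passed it. The whole list summed to 4.74 to 5.419 RPKM with overexpression, 5.632 to 7.714 RPKM with the empty vector, 5.274 to 5.941 RPKM with knockdown and 5.49 to 7.584 RPKM with the scrambled hairpin. Cd14 was lower with overexpression (log2 fold change -0.66, adjusted p = 0.000209), Cd68 was not called, and Adgre1, Ptprc and Itgam reached at most 0.00839 RPKM.

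The control groups differed from each other, and the P450 genes were among those that differed. Between the scrambled hairpin and the empty vector, 20 of 25 members passed, 6 higher and 14 lower, against 69.1% of all genes, 42.5% higher and 26.6% lower. Cyp2f2 averaged 66.4 ± 2.28 RPKM with the scrambled hairpin and 186 ± 5.19 RPKM with the empty vector (log2 fold change -1.47, adjusted p = 2.02e-10). Cyp1b1 averaged 42.2 ± 2.69 RPKM with the scrambled hairpin and 91.2 ± 1.78 RPKM with the empty vector (adjusted p = 8.19e-10). Cyp46a1 averaged 3.35 ± 0.136 RPKM with the scrambled hairpin and 0.923 ± 0.0938 RPKM with the empty vector (adjusted p = 1.22e-08). For these genes the log2 difference between the controls was larger in size than the knockdown response. It was larger for other members too, Cyp2c55, Cyp2ab1, Cyp7b1 and Cyp2j9 among them, but smaller for Cyp2e1 and Cyp4b1. Responses were therefore read only against the control of the same arm, and levels set across arms are descriptions. The calls of Cyp20a1, Cyp4f17, Cyp2c70 and Cyp11a1 between the controls were lost when some libraries were left out. Those libraries were empty vector replicates 1 to 3, the scrambled replicates and, through the shared spread, overexpression replicates 1 and 2 and the knockdown replicates, with adjusted p of 0.0526 to 0.197.

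The 38 silent members were 19 enzymes of foreign compounds, 11 of fatty acids and eicosanoids, 2 each of retinoids, steroid hormones, sterols and bile acids, and vitamin D. In 27 of them no library reached 0.1 RPKM, and 11 reached it somewhere. The rule turns on the library that ranks 3 from the top. By that value the members just above the minimum were Cyp17a1 (0.626 RPKM), Cyp4f39 (0.734 RPKM) and Cyp2b10 (0.819 RPKM), and just below it were Cyp2d22 (0.428 RPKM), Cyp27b1 (0.329 RPKM) and Cyp4f18 (0.259 RPKM). Several silent members still differed in reads between groups. Cyp1a1, the classical target of the aryl hydrocarbon receptor, had 0.292, 0.352 and 0.214 RPKM with overexpression, or 88 reads, against 3 reads with the empty vector, a ratio of 29.65 with a 95% counting interval of 9.82 to 146.5. Cyp2d22 had 49 reads with knockdown and 205 with the scrambled hairpin (ratio 0.242, interval 0.173 to 0.332). Cyp4f18, a leukotriene hydroxylase of mouse neutrophils, had 5 reads with overexpression and 52 with the empty vector (0.0972, 0.0303 to 0.242), and 46 reads with knockdown and 10 with the scrambled hairpin (4.66, 2.32 to 10.4). Cyp4a32, the near copy of Cyp4a10, had 23 reads with overexpression and 0 in every other library, at least 7.75-fold higher than the empty vector against a floor of 3 reads over the group, and 43.8% of its 50-base stretches occur in other genes. Cyp21a1, the steroid 21-hydroxylase, had 56 reads with overexpression and 10 with the empty vector (5.66, 2.86 to 12.4), and 23.8% of its stretches occur elsewhere, mainly in its pseudogene. The other silent members that reached 0.1 RPKM in a library were Cyp2d10, Cyp4f14, Cyp3a57, Cyp27a1 and Cyp2j8, at most at 0.258 RPKM. These intervals cover counting error only. With no minimum, limma called 14 of all 63 members higher and 13 lower with overexpression, against 23.9% of all rows, and 15 higher and 8 lower with knockdown, against 20.0%.

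Genes that work with the P450 enzymes were read from lists of 3 to 30 genes, and each count stands against 29.4% higher and 19.5% lower with overexpression, and 17.8% higher and 28.9% lower with knockdown, over all genes. The list of microsomal electron donors and related proteins had 9 tested genes: Por, Cyb5a, Cyb5b, Cyb5r1, Cyb5r3, Cyb5r4, Pgrmc1, Pgrmc2 and Nenf. Not all of these are electron donors of the endoplasmic reticulum. In this list 0 were higher and 5 lower with overexpression, and 4 were higher and 2 lower with knockdown. The median log2 fold change was -0.21 with overexpression and 0.06 with knockdown, against 0.04 and -0.04 over all genes. Por, the reductase that passes electrons to most microsomal P450 enzymes, averaged 91.0 RPKM with overexpression and 107.6 RPKM with the empty vector (adjusted p = 0.0103). It averaged 82.5 RPKM with knockdown and 98.5 RPKM with the scrambled hairpin (adjusted p = 0.00859). Cyb5a, the cytochrome b5 that gives P450 enzymes a further electron, averaged 70.9 ± 2.18 RPKM with overexpression and 122.5 ± 2.2 RPKM with the empty vector, and 105.8 ± 5.52 RPKM with knockdown and 75.7 ± 4.49 RPKM with the scrambled hairpin (adjusted p = 8.58e-08 and 1.47e-05). The mitochondrial donors Fdx1 and Fdxr, which serve Cyp11a1, were not called in either comparison (adjusted p = 0.244 to 0.695). Of 12 tested genes of heme synthesis, 3 were higher and 2 lower with overexpression, and 1 was higher and 4 lower with knockdown. Alas1, the first and rate-limiting enzyme of that pathway, averaged 59.9 ± 2.75 RPKM with overexpression and 48.3 ± 0.758 RPKM with the empty vector (adjusted p = 5.98e-05). Of the 4 tested genes of heme breakdown, 1 was higher and 2 lower with overexpression, and 1 was higher and 1 lower with knockdown. Hmox2, a heme oxygenase, averaged 46.2 ± 1.75 RPKM with overexpression and 31.997 ± 0.362 RPKM with the empty vector, and 46.1 ± 1.62 RPKM with knockdown and 56.8 ± 2.39 RPKM with the scrambled hairpin (log2 fold change 0.52 and -0.29, both called).

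Several nuclear receptors and the aryl hydrocarbon receptor control P450 genes in liver. Of 26 listed, 14 were tested, with 5 higher and 6 lower with overexpression and 3 higher and 10 lower with knockdown. The aryl hydrocarbon receptor gene Ahr reached at most 0.312 RPKM in any library, and Ppara, Nr1i2 (the gene of PXR) and Nr1i3 (the gene of CAR) at most 0.213, 0.0533 and 0.00604 RPKM. The other PPAR genes were expressed and were called lower in both comparisons. Pparg averaged 98.8 RPKM with overexpression, 122.5 with the empty vector, 82.1 with knockdown and 88.7 with the scrambled hairpin. In the same order Ppard averaged 18.9, 22.8, 30.1 and 37.6 RPKM. Their part in the P450 results was not tested. Rxra, the shared partner of many of these receptors, averaged 70.5 ± 1.24 RPKM with overexpression and 93.03 ± 2.66 RPKM with the empty vector, and 74.2 ± 2.83 RPKM with knockdown and 93.7 ± 4.22 RPKM with the scrambled hairpin (log2 fold change -0.39 and -0.33, both called lower). Nr1h3, the liver X receptor α, averaged 50.6 RPKM with overexpression and 69.4 RPKM with the empty vector, and 54.9 RPKM with knockdown and 38.99 RPKM with the scrambled hairpin (log2 fold change -0.45 and 0.48). Of 5 tested targets of the aryl hydrocarbon receptor outside the P450 genes, 2 were higher and 3 lower with overexpression, and 2 were higher and 2 lower with knockdown. Nqo1, a quinone reductase, averaged 12.2 ± 0.868 RPKM with overexpression and 19.5 ± 0.399 RPKM with the empty vector, and 17.5 ± 1.42 RPKM with knockdown and 9.64 ± 0.156 RPKM with the scrambled hairpin (adjusted p = 2.01e-06 and 1.23e-06). Aldh3a1 was called in the same directions as Nqo1. Tiparp and Slc7a5 were called the other way, higher with overexpression and lower with knockdown. Nfe2l2 was lower with overexpression and not called with knockdown.

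Further enzymes act on the same kinds of substrates. Of 24 tested oxidases and carboxylesterases, 5 were higher and 18 lower with overexpression, and 10 were higher and 7 lower with knockdown. Adh1, the alcohol dehydrogenase that shares ethanol as a substrate with Cyp2e1, averaged 3.56 ± 0.273 RPKM with overexpression and 20.8 ± 0.659 RPKM with the empty vector, and 16.2 ± 1.22 RPKM with knockdown and 10.1 ± 0.619 RPKM with the scrambled hairpin (adjusted p = 8.66e-11 and 9.39e-06). Of 20 tested conjugating enzymes, 4 were higher and 14 lower with overexpression, and 6 were higher and 4 lower with knockdown. Gsta4, a glutathione transferase, averaged 8.51 ± 0.573 RPKM with overexpression and 31.4 ± 0.135 RPKM with the empty vector (adjusted p = 8.66e-11), and was not called with knockdown (adjusted p = 0.441). Mgst1, a membrane glutathione transferase, averaged 290.6 ± 10.6 RPKM with overexpression and 404.1 ± 8.43 RPKM with the empty vector (adjusted p = 7.61e-06). It averaged 308.8 ± 17.5 RPKM with knockdown and 160.97 ± 7.08 RPKM with the scrambled hairpin (adjusted p = 1.29e-07). Of 11 tested enzymes of epoxides and eicosanoids, 4 were higher and 4 lower with overexpression, and 2 were higher and 4 lower with knockdown. Ephx2, the soluble hydrolase of the epoxides that P450 epoxygenases make, averaged 35.1 ± 2.49 RPKM with overexpression and 83.8 ± 1.42 RPKM with the empty vector (log2 fold change -1.23, adjusted p = 7.18e-10). It was lower with knockdown too, at 66.7 ± 0.45 RPKM, against 73.8 ± 0.674 RPKM with the scrambled hairpin (log2 fold change -0.14, adjusted p = 0.0183). Of 18 tested partners in steroid, sterol and retinoid pathways, 0 were higher and 9 lower with overexpression, and 5 were higher and 3 lower with knockdown. Of the P450 enzymes under other names, Ptgis, the prostacyclin synthase, averaged 25.6 ± 2.23 RPKM with overexpression and 42.9 ± 0.877 RPKM with the empty vector, and 24.6 ± 1.08 RPKM with knockdown and 29.5 ± 1.61 RPKM with the scrambled hairpin (adjusted p = 9.77e-07 and 0.00435). Cyp51, of cholesterol synthesis, was also lower in both, and Tbxas1 was not tested, with at most 0.0429 RPKM.

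**Figure D4:**
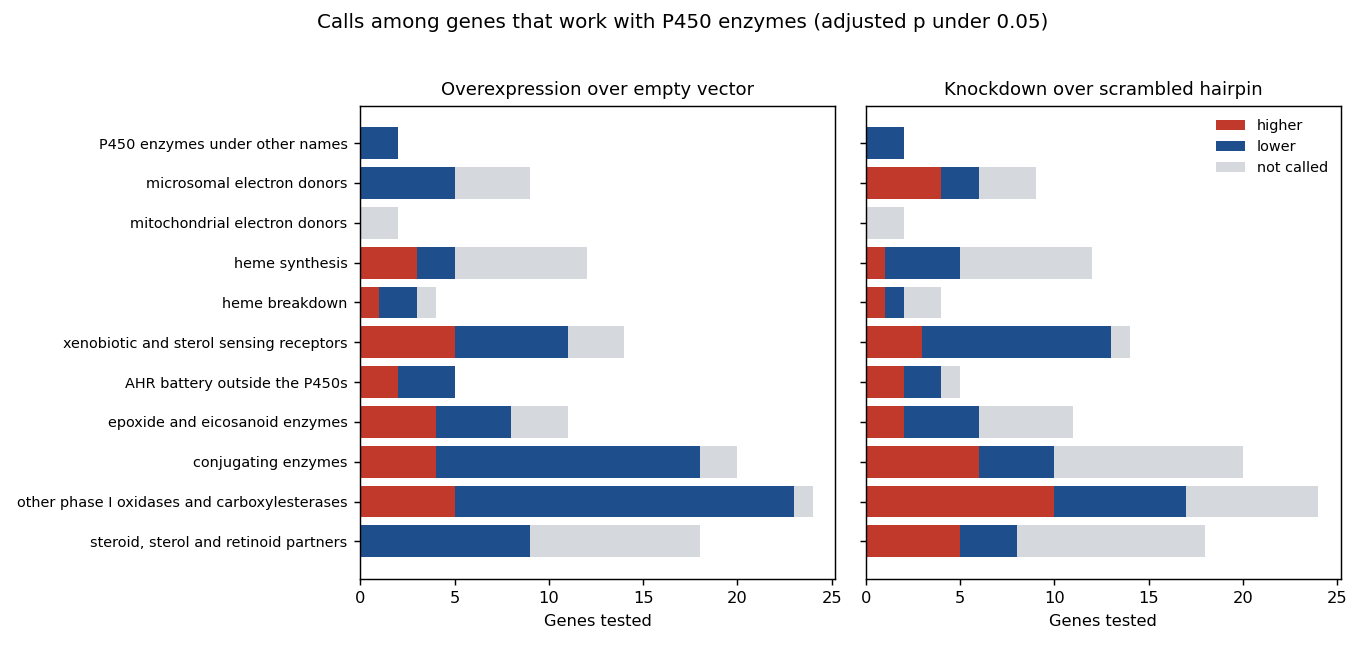
Number of tested genes higher, lower and not called in each list of genes that work with P450 enzymes, for overexpression over empty vector and for knockdown over scrambled hairpin (limma, adjusted p under 0.05). With overexpression 18 of 24 oxidases and carboxylesterases and 14 of 20 conjugating enzymes are lower. No gene is then higher in the list of microsomal electron donors and related proteins.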

How the data were processed

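Total RNA of 12 libraries of 3T3-L1 adipocytes was sequenced. The values are RPKM that the authors deposited per gene, divided by 1000 in the deposited table (sums of 311.82 to 357.68 per library) and multiplied by 1000 here. Per the submitters' processing notes, HISAT2 2.1.0 and featureCounts of Subread 1.5.3 were used on build mm10. Their settings, including strand and reads that match several places, are not given in the sources used here. Symbols, positions and exon lengths came from GENCODE M21 (GRCm38), which matched 28896 of 28948 identifiers.

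Multiplied by exon length, 98.83% to 98.93% of the values above 0 per library were whole numbers of reads to within 0.05. The reads so recovered gave the depth, the exact Poisson intervals of read ratios and a voom alternative. The 12712 genes that met the minimum of 0.5 RPKM in 3 or more libraries were fitted with limma 3.58.1 (R 4.3.3) on log2(RPKM + 1) values (a trend of variance with level, 1 model of 4 groups, Benjamini-Hochberg adjustment over all genes tested). Log2 fold changes of low genes come out too small on that scale, and ratios of mean RPKM stand beside them. Errors are SD over 3 libraries unless named SE.

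Described members were all named. Members called with a ratio of at least 1.5 are given by library, with Cyp1b1 added for its level. Genes of partner lists were named from the 3 with the smallest adjusted p per comparison, and not all of those are given. Por, Star, Nr1h3, Ppard, Tbxas1, the receptors below the minimum and the named cell type markers were chosen after their values were seen. Members and lists were chosen with earlier results of these data known. Shared stretches were 50-base words of the GENCODE M21 transcripts. Promoter windows came from a RefSeq table on GRCm38.p6. The test was also run on simulated data with planted changes and independent replicates. That run required only that most of the largest planted changes be found, and no result rests on it. Alternatives were other pseudocounts, filters, scalings, variance models and thresholds, a replicate block, voom and leaving out each library. Other steps used matplotlib 3.10.9, scipy 1.17.1, numpy 2.4.6, pandas 2.3.3 and Python 3.11.15.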

Additional observations from a re-analysis of the deposited data

How the results depend on the processing

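The counts of members called higher and lower were 7 and 11 with overexpression, 13 and 6 with knockdown, 10 positive and 12 negative for the difference of responses, and 6 and 14 between the controls. Leaving out each library in turn gave 7 to 8 and 11 with overexpression, 11 to 13 and 6 with knockdown, 9 to 10 and 11 to 12 for the difference, and 4 to 6 and 12 to 14 between the controls. With a filter at 1 RPKM, 4 members were higher with overexpression, because Cyp11a1, Cyp4f39 and Cyp17a1 were then not tested. The other alternatives gave 9 to 13 members higher with knockdown and 10 to 11 lower with overexpression. Scaling to TPM ended the knockdown calls of Cyp20a1 (adjusted p = 0.0832), Cyp2j6 (0.0799), Cyp2c23 (0.0656) and Cyp4f17 (0.0538), and a pseudocount of 0.1 that of Cyp2c23 (0.0902). The 1 change of direction was that of Cyp4f17 between the controls, at 0 after rounding to 3 decimals, on the log2 scale with quantile normalization (adjusted p = 0.992). With the replicate number as a block all 8 counts stayed as they were, and 100 of 100 single results of members kept their call. Libraries with the same number did not deviate together (correlations of -0.013, 0.101 and 0.087 for overexpression and its control, and -0.059, 0.036 and -0.041 for knockdown and its control), so the numbers were not taken as pairs. Scalings moved the median of all genes by no more than 0.084 on the log2 scale in size. Depth limits the silent members, where a few reads set the value.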
